A study of Mus musculus with 9 samples.

Results

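The effect of minocycline in mice kept on a high-fat diet was examined in tissue punches of the paraventricular nucleus (PVN) of the hypothalamus, by setting 3 HFD+Mino mice against 3 HFD mice. These are 6 of the 9 samples of the series, and they were taken by their group labels alone. All mice were wild-type males of the C57BL/6 strain (C57BL/6J in the study's methods) that started their diet at an age of 5 weeks (postnatal day 35 in the labels). For 12 weeks both fat-diet groups had a diet in which fat supplied 60% of calories, and they were moved to single cages midway. HFD+Mino mice had minocycline in their drinking water at 40 mg/kg/day during the last 6 weeks, whereas HFD mice drank tap water. The 3 Control mice, on a diet with 16% of calories from fat, took no part in the contrast. Their libraries entered the filter on low counts, the scaling and the estimate of the spread between mice. RNA from 30 to 60 mg of tissue per mouse was amplified as full-length cDNA with a kit for very small inputs, and reads were counted per gene. Over 27179 listed genes, 17344 had enough counts to be tested. The comparison asks which PVN transcripts differed with the drug while the diet stayed the same.

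Minocycline belongs to the tetracyclines and reaches the brain from the blood. In rodents it is often given to dampen the activity of microglia, the macrophages of brain tissue. Tetracyclines block the small subunit of the bacterial ribosome, and they also slow protein synthesis on the mitochondrial ribosome. Neurons of the PVN make vasopressin, oxytocin and the hormones that release corticotropin and thyrotropin, and they relay satiety signals that arrive from the arcuate nucleus.

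Total counts ran from 17728590 to 39916355 in the HFD libraries and from 30642381 to 34935469 in the HFD+Mino libraries. Values are given as CPM (counts scaled by the sequencing depth of the library), in the order of replicates 1, 2 and 3. The HFD libraries lay closer together than the HFD+Mino libraries. Pairs of HFD mice differed by 0.179 to 0.262 on the log2 scale for the median gene, and pairs of HFD+Mino mice by 0.456 to 0.621. HFD+Mino replicate 3 stood apart from its group. It was the HFD+Mino library nearest to HFD for 45.6% of the genes called higher and 63.7% of the genes called lower, so for many of the gene groups below a count of calls without that library stands beside the count over all libraries. Mitochondrial transcripts took 3.14% to 3.67% of the counts in HFD and 4.68%, 6.21% and 3.20% in HFD+Mino. The ribosomal precursor Rn45s took 0.350% to 0.430% in HFD and 0.113%, 0.0663% and 0.0450% in HFD+Mino. With these transcripts left out of the fit, 346 genes were called higher and 383 lower in HFD+Mino. The markers of the region were present, with 589.5, 1487 and 1984 CPM in HFD and 28049, 22180 and 1218 CPM in HFD+Mino for Avp and 1402, 1364 and 1409 CPM in HFD and 8907, 8696 and 1358 CPM in HFD+Mino for Oxt. HFD+Mino replicates 1 and 2 were above every HFD library for both peptides, and replicate 3 was not. The transcription factor Otp, which specifies these neurons, was near 1 CPM or below, with 1.15, 1.13 and 0.971 CPM in HFD and 0.616, 0.371 and 0.519 CPM in HFD+Mino.

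A gene was called when edgeR's quasi-likelihood test gave a false discovery rate (FDR) under 0.01 and the change was at least 1.5-fold. Minocycline-treated mice had 344 genes called higher (1.98% of the genes tested) and 375 called lower (2.16%). Among all 17344 genes, 23.3% had every HFD+Mino library above every HFD library and 23.5% had every one below, and 7171 genes (41.3%) reached an unadjusted p under 0.05. The genes called higher had a median log2 fold change of 1.81, and 139 of them changed at least 4-fold. The genes called lower had a median of -1.57, and 82 changed at least 4-fold. The median over all tested genes was 0.01. Most calls changed with the libraries that entered the fit, Control libraries among them. Without HFD+Mino replicate 3 the counts grew to 2061 higher and 1754 lower, among them all 344 and all 375, and without HFD replicate 3 they shrank to 26 and 3. Leaving out HFD replicate 1 left 39 and 15 genes, and leaving out HFD replicate 2 left 45 and 14. The fit without HFD+Mino replicate 1 gave 87 and 18, the fit without HFD+Mino replicate 2 gave 204 and 134, and the fit without Control replicate 2 gave 90 and 58. An FDR under 0.05 with all libraries gave 2524 and 2233. For 151 named genes with 1 sample left out, 545 of 1359 log2 fold changes kept direction and lost the call, and 1 reversed. How much of the loss came from the smaller number of libraries was not tested. Counts in the gene lists below stand against the shares of all genes. With all libraries these are 1.98% higher and 2.16% lower, and without HFD+Mino replicate 3 they are 11.6% and 9.83%. DESeq2 called 2182 genes higher and 1810 lower of 17344. No list was tested against these shares. Lists and their members were chosen with earlier results of these data known, so a share above that of all genes is a description only.

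**Figure D1:**
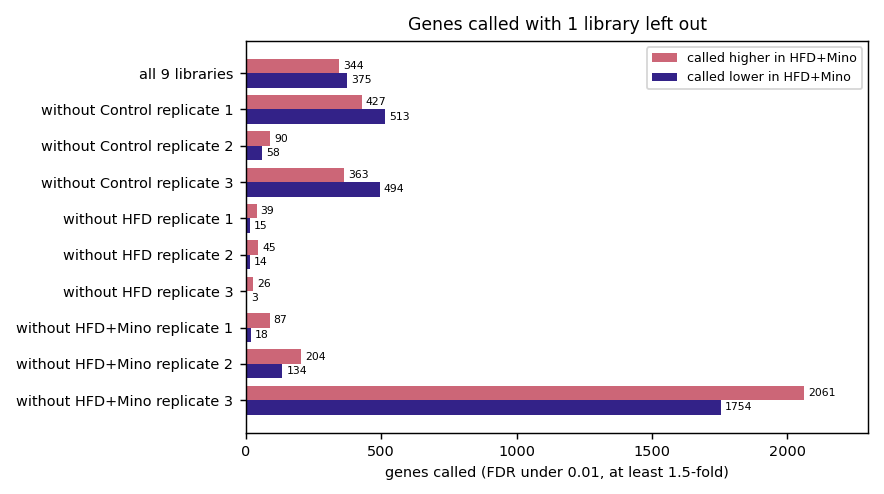
Number of genes called (FDR under 0.01 and at least 1.5-fold, horizontal axis) with all 9 libraries and with each library left out (vertical axis), higher (pink) and lower (dark) in HFD+Mino. The counts lie between 26 and 2061 for higher and between 3 and 1754 for lower genes.

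There were 29 genes that were called in each of the 6 fits that left out a fat-diet library, 26 of them higher (0.15% of the genes tested) and 3 lower (0.0173%). All 29 were also called without any single Control library. Since dropping HFD replicate 3 left 26 and 3 calls, the set is the list of that fit, and every other called gene named below lost its call when that library was left out. The 26 higher genes rose by 4.27-fold to 34.0-fold, with SEs of 0.22 to 0.50 on the log2 scale. The lowest HFD+Mino library was 3.17-fold to 19.5-fold above the highest HFD library. In 16 of the 26 that lowest library was HFD+Mino replicate 2, and in 4 it was replicate 3. In all 26 the Control libraries lay above the HFD libraries, and in 24 their range overlapped that of HFD+Mino. For the 3 lower genes the Control libraries lay below HFD. Both contrasts use the same HFD libraries, so the Control values are given as a description.

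Several of these genes act in transcription and on RNA. Cebpb, a transcription factor of the C/EBP family that responds to cytokines and hormones, was at 0.301, 0.319 and 0.448 CPM in HFD and 12.1, 6.43 and 18.7 CPM in HFD+Mino. No HFD library reached 0.5 CPM and no HFD+Mino library was below 6 CPM, a rise with log2 fold change 5.09, SE 0.50, FDR 0.000513. Alyref, an adaptor of the TREX complex that hands messenger RNA to the nuclear export receptor, was at 2.76, 3.6 and 2.89 CPM in HFD and 57, 57.2 and 68.8 CPM in HFD+Mino (log2 fold change 4.30, SE 0.25, FDR 3.01e-05). The HFD+Mino values were tightly grouped and far above HFD. Pabpn1, which binds poly(A) tails in the nucleus, was at 27.2, 33.9 and 30.3 CPM in HFD and 145, 133 and 191 CPM in HFD+Mino (log2 fold change 2.36, SE 0.23, FDR 0.000513). Suds3, a subunit of the Sin3 corepressor, was at 7.18, 11 and 8.91 CPM in HFD and 57.9, 43.9 and 76.6 CPM in HFD+Mino (log2 fold change 2.72, SE 0.28, FDR 0.000633). Akirin2, a nuclear protein that takes part in transcription of inflammatory genes and in nuclear import of proteasomes, was at 7.78, 7.86 and 6.5 CPM in HFD and 39.98, 44.5 and 57.4 CPM in HFD+Mino (log2 fold change 2.68, SE 0.24, FDR 0.000385). Btg3, of the BTG/TOB family of antiproliferative factors, was at 1.15, 1.07 and 0.747 CPM in HFD and 8.11, 10.9 and 8 CPM in HFD+Mino (log2 fold change 3.19, SE 0.33, FDR 0.000633). Yrdc, which modifies transfer RNA, was at 4.17, 7.19 and 6.32 CPM in HFD and 38.4, 30.1 and 51.7 CPM in HFD+Mino (log2 fold change 2.76, SE 0.29, FDR 0.000647). The groups did not overlap in any of these genes.

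A further group acts in ubiquitin-like modification and in phosphatase and RAS signaling. Otulin, the enzyme that removes linear ubiquitin chains, was at 1.2, 2.2 and 1.34 CPM in HFD and 29.3, 19 and 36.1 CPM in HFD+Mino (log2 fold change 4.14, SE 0.35, FDR 0.000208). Ube2m, which conjugates NEDD8 to cullins, was at 11.4, 15.3 and 12.3 CPM in HFD and 135, 90.5 and 189 CPM in HFD+Mino (log2 fold change 3.41, SE 0.32, FDR 0.000492), and Kctd2, an adaptor of cullin-3 ligases, was at 7.38, 9.02 and 9.73 CPM in HFD and 78.2, 66.7 and 121 CPM in HFD+Mino (log2 fold change 3.35, SE 0.27, FDR 0.000198). HFD+Mino replicate 3 held the highest value and replicate 2 the lowest in each of these 3 genes. Hras, a small GTPase that starts the ERK cascade, was at 24.7, 28.6 and 26.4 CPM in HFD and 301, 186 and 218 CPM in HFD+Mino (log2 fold change 3.14, SE 0.24, FDR 0.000187). Ppp2ca, the alpha catalytic subunit of protein phosphatase 2A (PP2A), was at 51.5, 69.5 and 61.8 CPM in HFD and 427, 475 and 692 CPM in HFD+Mino (log2 fold change 3.12, SE 0.27, FDR 0.000271), and Ppp2r2d, one of its regulatory subunits, was at 15.8, 22.4 and 25.4 CPM in HFD and 80.3, 84.8 and 106 CPM in HFD+Mino (log2 fold change 2.09, SE 0.24, FDR 0.000977). Both PP2A subunits were highest in HFD+Mino replicate 3, and the groups were well separated. Bod1, which inhibits a form of PP2A at chromosomes, was at 16.4, 32.4 and 22.9 CPM in HFD and 205, 175 and 149 CPM in HFD+Mino (log2 fold change 2.88, SE 0.28, FDR 0.000497).

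Other genes of this set belong to membranes, chromosomes and the cell cycle. Zmynd19, a zinc finger protein that binds the receptor for melanin-concentrating hormone, was at 0.853, 0.551 and 0.772 CPM in HFD and 20.2, 16.6 and 30.6 CPM in HFD+Mino (log2 fold change 4.96, SE 0.34, FDR 0.000106). Lamp1, the main glycoprotein of the lysosomal membrane, was at 59.9, 101 and 86.3 CPM in HFD and 631, 679 and 816 CPM in HFD+Mino (log2 fold change 3.11, SE 0.28, FDR 0.000385), and Mtch1, a protein of the outer mitochondrial membrane, was at 145, 164 and 150.0 CPM in HFD and 802, 578 and 957 CPM in HFD+Mino (log2 fold change 2.35, SE 0.23, FDR 0.000513). The groups were far apart in all 3. Tmem243 was at 0.602, 0.667 and 0.772 CPM in HFD and 14.4, 13.6 and 15.8 CPM in HFD+Mino, Dexi at 3.31, 3.31 and 4.56 CPM in HFD and 59.5, 42.8 and 60.2 CPM in HFD+Mino and Vstm2l at 3.41, 2.93 and 3.86 CPM in HFD and 36, 27.5 and 59.8 CPM in HFD+Mino. Their log2 fold changes were 4.40, 3.86 and 3.59, and Vstm2l was the gene of the set that was not called once a trend on exon length was removed. Cenpv, Nsmce4a and Cdk2ap1, proteins of the centromere, of the SMC5/6 complex and of the NuRD corepressor, rose by 3.06, 2.91 and 2.80 on the log2 scale. Clptm1l, Pla2g12a and Coq10a, which act in membrane lipid and coenzyme Q handling, rose by 2.62, 2.33 and 2.32 on the log2 scale. Suds3 and the genes of lower rank (Akirin2, Yrdc, Bod1, Cdk2ap1, Clptm1l, Pabpn1, Mtch1, Pla2g12a, Coq10a and Ppp2r2d) were beyond the 15 largest rises of the set and were named after their values were seen, except those that also belong to a gene list.

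The 3 genes that fell in every fit were Itgb8, a long noncoding RNA and a gene without a symbol. Itgb8, the integrin subunit that with alpha v frees TGF-beta from its latent form, was at 22.1, 17.7 and 19.8 CPM in HFD and 2.4, 1.45 and 3.09 CPM in HFD+Mino (log2 fold change -3.10, SE 0.34, FDR 0.000888). 2900097C17Rik, the noncoding RNA Norad that binds Pumilio proteins, was at 689, 802 and 939 CPM in HFD and 177, 200.3 and 219 CPM in HFD+Mino (log2 fold change -2.03, SE 0.22, FDR 0.000764). Entrez gene 100628626 (Entrez100628626) was at 54.5, 52.6 and 43.1 CPM in HFD and 9, 3.97 and 7.29 CPM in HFD+Mino (log2 fold change -2.89, SE 0.34, FDR 0.00121). The lowest HFD library lay at least 3.15-fold above the highest HFD+Mino library in each.

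**Figure D2:**
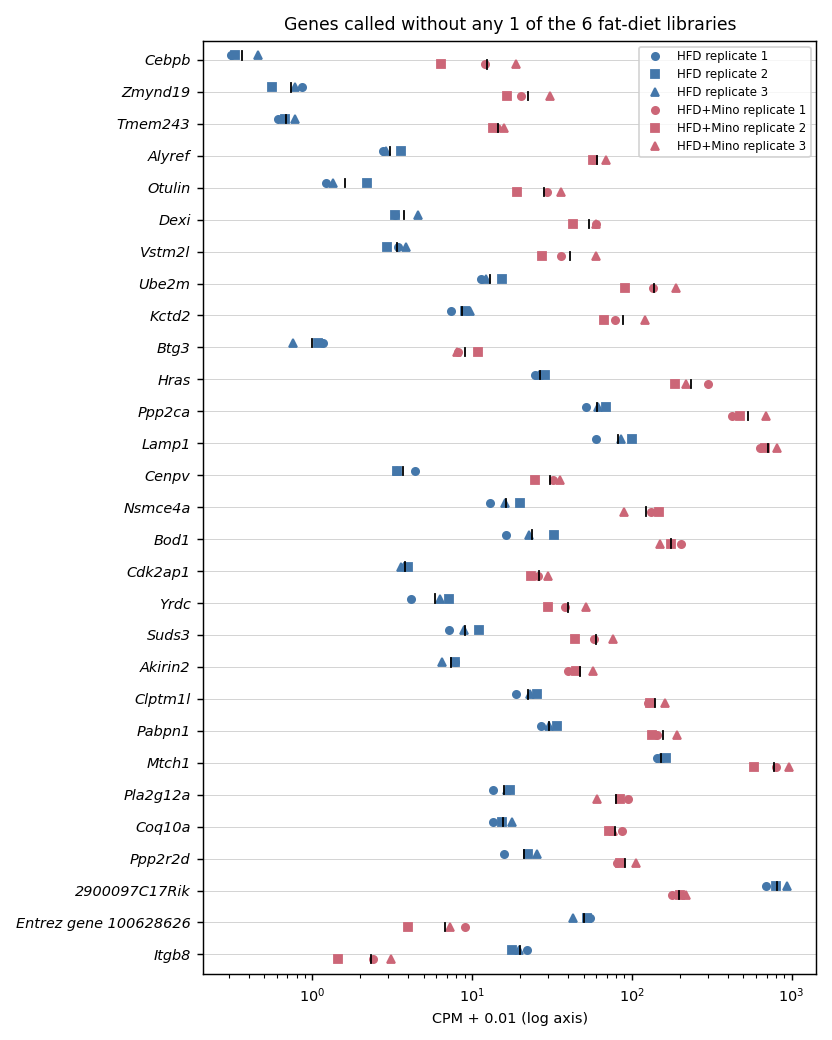
CPM of the 29 genes called in every fit without 1 fat-diet library (horizontal log axis, 0.01 added), for 3 HFD (blue) and 3 HFD+Mino (pink) libraries, with a black tick at the group mean. The top 26 genes lie to the right in HFD+Mino and the bottom 3 to the left, with no overlap of the groups.

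These genes shared a feature of sequence that had no part in their choice. The most GC-rich stretch of 100 nt in the transcript had a median GC content of 87% in the 26 higher genes, against 72% over all tested genes, and 19 of the 26 had a stretch of at least 84%. Among all tested genes with such a stretch, 9.09% were called higher, against 0.834% to 1.92% in the other bins of that measure. Cebpb (GRCm38 chr2:167688915-167690432, plus strand) and Zmynd19 (chr2:24949777-24960870, plus strand) had stretches of 89% and 88%. Their promoters, from 250 bases before to 50 bases after the RefSeq start on GRCm38.p6, are shown 5′ to 3′ because they are the 2 largest rises of the set. Capitals mark CG dinucleotides, of which the window of Cebpb (chr2:167688665-167688964) held 50 and that of Zmynd19 (chr2:24949527-24949826) held 45.
Cebpb: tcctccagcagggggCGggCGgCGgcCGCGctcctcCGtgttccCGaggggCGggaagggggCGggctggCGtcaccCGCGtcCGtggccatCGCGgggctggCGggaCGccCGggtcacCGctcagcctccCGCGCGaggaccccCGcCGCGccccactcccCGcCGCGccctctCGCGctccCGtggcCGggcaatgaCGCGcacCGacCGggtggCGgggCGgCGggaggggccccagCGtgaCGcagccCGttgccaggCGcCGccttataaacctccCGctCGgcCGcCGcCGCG
Zmynd19: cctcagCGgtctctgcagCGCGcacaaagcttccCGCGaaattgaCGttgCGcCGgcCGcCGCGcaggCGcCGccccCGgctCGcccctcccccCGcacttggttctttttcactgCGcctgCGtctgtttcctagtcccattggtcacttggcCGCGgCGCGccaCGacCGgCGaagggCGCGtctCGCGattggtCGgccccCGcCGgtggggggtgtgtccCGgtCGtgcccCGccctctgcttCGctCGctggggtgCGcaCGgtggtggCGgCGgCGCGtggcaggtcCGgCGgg
The GC content of these windows was 80.7% and 73.3%. Over the 261 genes called higher that had a promoter in the RefSeq table, the median was 63.3% GC with 25 CG dinucleotides. It was 64.7% with 24 over 291 genes called lower, and 60% with 19 over all 13063 promoters. Both strands were searched for 6 motifs. The cAMP response element TGACGTCA was in 4.98% of the promoters called higher, 5.5% of those called lower and 2.95% of all. The C/EBP motif TTNNGCAA was in 6.9%, 4.12% and 8.35%, the AP-1 motif TGANTCA in 3.07%, 4.12% and 5.18%, and the E-box CACGTG in 9.96%, 9.97% and 9.77%. The GC box GGGCGG was in 66.7%, 71.5% and 60.1%, and TATAAA in 7.28%, 6.19% and 7.9%. These shares are descriptions of the windows and not of binding. Exons of 9 of the 26 genes overlap another gene, with Cebpb sharing 312 nt with Tmem189, Tmem243 sharing 404 nt with Dmtf1, Dexi sharing 329 nt with Ciita, Ppp2ca sharing 2985 nt with 9430098F02Rik, Lamp1 sharing 249 nt with Grtp1 and Btg3 sharing 695 nt with Cxadr, all on the opposite strand. The remaining 3 are Yrdc, Ppp2r2d and Pabpn1, the last on the same strand. The library kit does not mark strand, so reads from these stretches cannot be assigned to 1 of the 2 genes.

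Beyond that set, the largest changes were less stable. Areg, which encodes the EGF receptor ligand amphiregulin, was at 0.803, 0.116 and 0.149 CPM in HFD and 13.9, 18.6 and 1.8 CPM in HFD+Mino. Replicates 1 and 2 were far above HFD and replicate 3 was closer to it, at 66 reads against 4 to 16 reads in HFD (log2 fold change 5.13, SE 1.04, FDR 0.00999). Dapk3, a death-associated protein kinase, was at 1.76, 1.8 and 1.82 CPM in HFD and 25.8, 14.7 and 60.3 CPM in HFD+Mino (log2 fold change 4.23, SE 0.47, FDR 0.000927), and C1ql1, a secreted C1q-like protein, was at 1, 0.812 and 0.473 CPM in HFD and 10.2, 5.27 and 18.2 CPM in HFD+Mino (log2 fold change 3.90, SE 0.50, FDR 0.00186). Here replicate 3 held the highest value. Dapk3 was called in 5 of the 6 fits without a fat-diet library, C1ql1 in 3 and Areg in 1.

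Among the largest falls, Peg3, an imprinted zinc finger gene, was at 724, 642 and 835 CPM in HFD and 45.5, 82.6 and 98.8 CPM in HFD+Mino (log2 fold change -3.28, SE 0.45, FDR 0.00257). Klhl11, an adaptor of cullin-3 ligases, was at 14.7, 13.1 and 16.3 CPM in HFD and 0.274, 0.929 and 2.87 CPM in HFD+Mino (log2 fold change -3.41, SE 0.64, FDR 0.00837). Both were lower in every HFD+Mino library. Grin3a, an NMDA receptor subunit, was at 65.6, 91.7 and 93.8 CPM in HFD and 4.55, 7.95 and 18.1 CPM in HFD+Mino (log2 fold change -3.03, SE 0.56, FDR 0.008), and Dag1, the dystroglycan that links cells to laminin, was at 100.3, 96.1 and 103 CPM in HFD and 6.16, 5.61 and 25.2 CPM in HFD+Mino (log2 fold change -3.01, SE 0.60, FDR 0.00954). Nos1, the neuronal nitric oxide synthase, was at 32.7, 34 and 27.8 CPM in HFD and 2.94, 2.56 and 6.47 CPM in HFD+Mino (log2 fold change -2.97, SE 0.56, FDR 0.00846). HFD+Mino replicate 3 was the nearest to HFD for these 3 genes. Cpeb4, a regulator of poly(A) tails in the cytoplasm, and Abhd2, a lipid hydrolase, had log2 fold changes of -2.95 and -2.94, and the predicted genes Gm340 and Gm19378 had -3.86 and -3.02. Peg3 was called in 2 of the 6 fits without a fat-diet library, Cpeb4 in 3 and Gm19378 in 4, while Klhl11, Grin3a, Dag1, Nos1, Abhd2 and Gm340 were called in the fit without HFD+Mino replicate 3 and in no other of the 6.

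The change followed the exon length of the gene. Genes called higher had a median exon length of 2816 nt, genes called lower 7928 nt and uncalled genes 4296 nt. Among the shortest genes (62 to 1704 nt, 1 of 10 bins of equal size) 4.28% were called higher and 0% lower, and in the bin of the longest genes 0.832% were called higher and 7.42% lower. The median log2 fold change went from 1.10 in the shortest bin to -0.60 in the longest. The shortest bin lay above the HFD mean by 1.24, 1.08 and 0.39 in HFD+Mino replicates 1 to 3, and the longest bin lay at -0.65, -0.48 and -0.60. With a smooth trend on exon length removed from each library, 309 genes were called higher (1.78%) and 149 lower (0.859%), 186 and 126 of them shared with the calls above. What accounts for the relation to length was not tested.

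**Figure D3:**
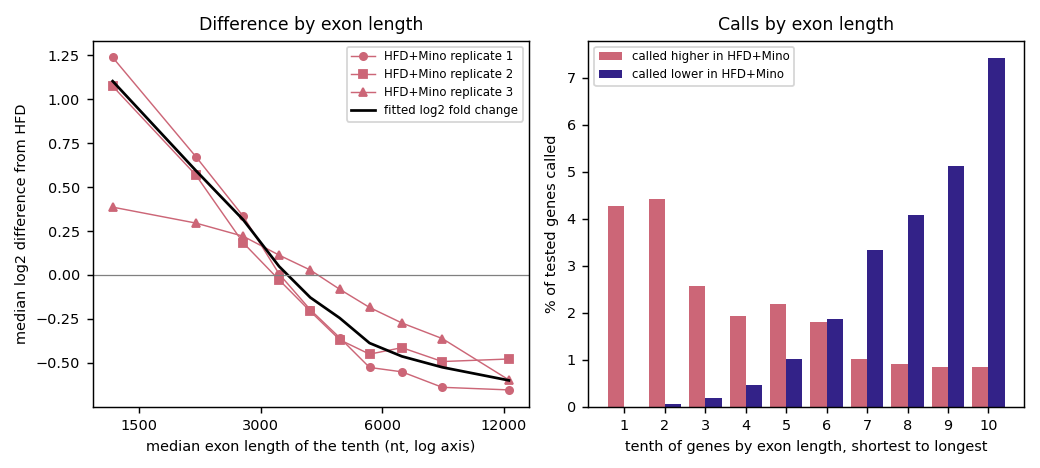
Left, median log2 difference from HFD (vertical axis) in 10 bins of genes by exon length (horizontal log axis, nt) for each HFD+Mino library and for the fit over all libraries (black), falling from 1.10 to -0.60 in the fit. Right, percent of tested genes called higher (pink) and lower (dark) in the same bins, with 4.28% higher in the shortest and 7.42% lower in the longest.

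The respiratory chain and the mitochondrial ribosome, whose genes are mostly short, had medians above HFD while few of their members passed edgeR's test. DESeq2 with the same libraries called 57 of 82 respiratory chain genes and 62 of 78 mitochondrial ribosomal proteins higher. Over all genes it called 2182 of 17344 higher. At an unadjusted p under 0.05 in edgeR, 72 genes of each group were above HFD, against 41.3% of all genes in either direction. Of 82 tested nuclear-encoded subunits of the respiratory chain 1 passed. Ndufa2, a subunit of complex I, was at 157, 193 and 161 CPM in HFD and 1000, 858 and 305 CPM in HFD+Mino (log2 fold change 2.08, SE 0.41, FDR 0.00946) and was not called with the length trend removed. The median log2 fold change of the group was 1.41, and the HFD+Mino libraries lay 1.80, 1.56 and 0.43 above the HFD mean. Without HFD+Mino replicate 3, 60 of the 82 were called higher (11.6% of all genes in that fit), and with the length trend removed the median was 0.36. Of 78 mitochondrial ribosomal proteins, which build the ribosome that translates the mitochondrial genome, Mrpl41 passed, at 79.96, 96.3 and 80.1 CPM in HFD and 370.1, 322 and 153 CPM in HFD+Mino (log2 fold change 1.72, SE 0.32, FDR 0.00846). Their median was 1.17, with 66 called higher without HFD+Mino replicate 3, and 0.49 with the length trend removed, where Mrpl41 was not called. The 13 protein-coding genes of the mitochondrial genome had a median of 0.71 (-0.82 with the length trend removed) and edgeR called 0 of them, with 3 at an unadjusted p under 0.05 2 called by DESeq2 and 1 called higher without HFD+Mino replicate 3.

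Proteasome, spliceosomal ring, cytosolic ribosome and antioxidant genes also had medians above HFD. Of 38 tested proteasome subunits, 2 rose. The core subunits were at 145, 153 and 148 CPM in HFD and 608, 596 and 235 CPM in HFD+Mino for Psmb4 (log2 fold change 1.69, SE 0.34, FDR 0.00954) and at 103, 105 and 100.3 CPM in HFD and 359.9, 384 and 197 CPM in HFD+Mino for Psmb7 (log2 fold change 1.61, SE 0.30, FDR 0.00846). The median was 1.10, and 24 were called higher without HFD+Mino replicate 3. DESeq2 with all libraries also called 24 higher, and 32 were above HFD at an unadjusted p under 0.05. With the length trend removed the median was 0.59, and neither Psmb4 nor Psmb7 was called. Among 25 Sm and LSm proteins, which form the rings of spliceosomal and decay particles, Lsm7 rose (log2 fold change 1.75, SE 0.35, FDR 0.00954), the median was 1.19 and 18 were called higher without HFD+Mino replicate 3, while the length-corrected median was 0.41 and Lsm7 was not called. DESeq2 called 15 of the 25 higher, with 20 above and 1 below HFD at an unadjusted p under 0.05. For 83 cytosolic ribosomal proteins edgeR called 0 and DESeq2 called 6, with 39 above HFD at an unadjusted p under 0.05, and 46 were called higher by edgeR once HFD+Mino replicate 3 was left out. Their medians in the 3 HFD+Mino libraries were 1.20, 1.04 and -0.25, so replicate 3 lay on the other side of HFD, and with the length trend removed the median over the group was -0.01. Of 29 antioxidant genes, 2 rose, both subunits of the enzyme that starts glutathione synthesis. Gclm was at 4.32, 7.63 and 6.32 CPM in HFD and 21.7, 24.4 and 27.9 CPM in HFD+Mino (log2 fold change 2.01, SE 0.28, FDR 0.00257) and Gclc at 15, 16.5 and 17.7 CPM in HFD and 49.9, 40.05 and 104 CPM in HFD+Mino (log2 fold change 1.98, SE 0.33, FDR 0.00531), and both were also called with the length trend removed. The antioxidant median was 0.87 (0.46 with the length trend removed), and 14 were called higher and 1 lower without HFD+Mino replicate 3. DESeq2 with all libraries called 12 higher and 1 lower. The peroxiredoxin genes Prdx2 and Prdx6 were among the members that did not pass, at log2 fold changes of 1.40 and 0.99.

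**Figure D4:**
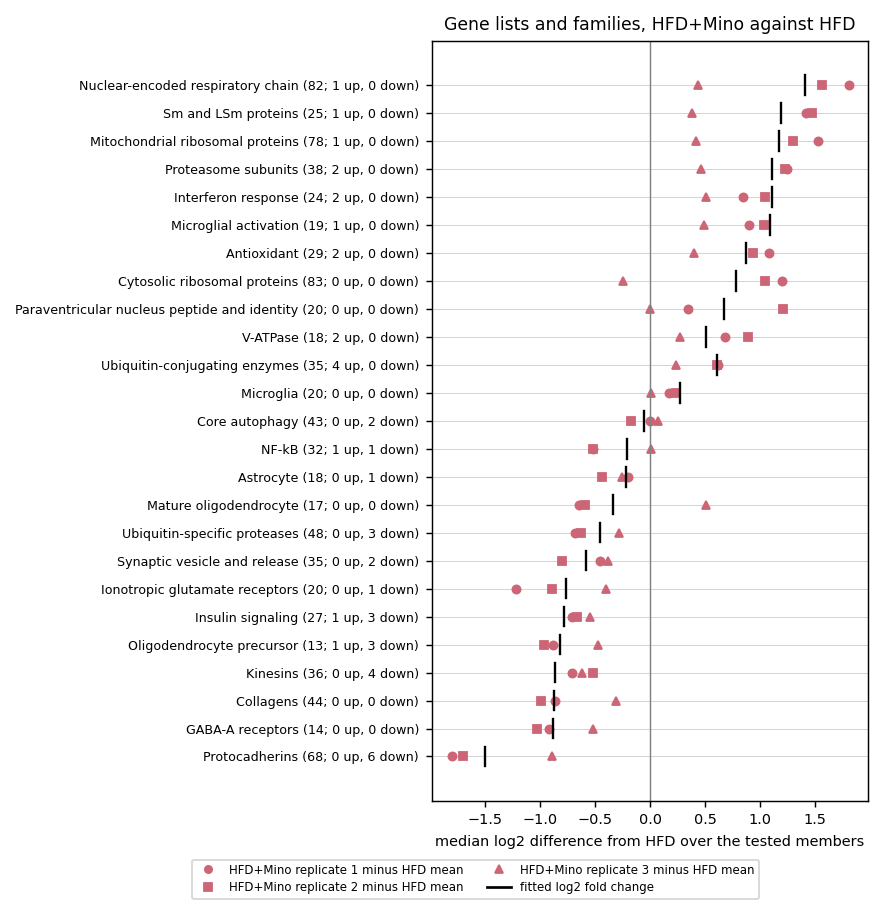
Median log2 difference from HFD (horizontal axis) over the tested members of 25 gene lists and families (vertical axis, with the number tested and called), for HFD+Mino replicates 1 to 3 (points) and the fit (black line). The respiratory chain is at the top with 1.41 and the protocadherins at the bottom with -1.51, and replicate 3 lies nearer to 0 than replicates 1 and 2 in both.

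Protocadherins and kinesins had medians below HFD. Of 68 protocadherins, cell-surface proteins that give neurons their identity, 6 fell (8.82%, against 2.16% of all genes) and the median was -1.51. Pcdhgb7 was at 13, 12.7 and 10.5 CPM in HFD and 1.03, 1.67 and 2.9 CPM in HFD+Mino (log2 fold change -2.69, SE 0.41, FDR 0.00399), and Pcdhga5, Pcdhga7 and Pcdhga11 of the same gamma cluster fell, with log2 fold changes of -2.52, -2.41 and -2.25. Members of that cluster share their 3′ exons, so how the reads were split between them is uncertain. Outside it, Pcdh18 and Pcdh9 fell, with log2 fold changes of -1.85 and -1.22. Without HFD+Mino replicate 3, 35 of the 68 were called lower (9.83% of all genes in that fit), and with the length trend removed 4 were called and the median was -1.30. DESeq2 with all libraries called 29 of the 68 lower, against 1810 of all 17344 genes. Of 36 kinesins, the motors that carry cargo along microtubules, 4 fell (11.1%). Kif5a, the neuronal heavy chain of kinesin-1, was at 1550, 1546 and 1602 CPM in HFD and 232, 159 and 457 CPM in HFD+Mino (log2 fold change -2.47, SE 0.39, FDR 0.00452), and Kif5c was at 453, 470.5 and 463 CPM in HFD and 170.2, 178 and 163 CPM in HFD+Mino (log2 fold change -1.44, SE 0.20, FDR 0.00257). Kif13b and Kif1a fell, with log2 fold changes of -2.27 and -1.21. The kinesin median was -0.87, and -0.50 with the length trend removed, where Kif5a and Kif5c were called and Kif13b and Kif1a were not. Leaving out HFD+Mino replicate 3 gave 6 kinesins called lower and 1 higher, and DESeq2 with all libraries called 7 lower and 1 higher.

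At the synapse, Unc13c, a priming factor of vesicle release, fell by 1.55 on the log2 scale and was not called with the length trend removed. Grin3a was the member of 20 ionotropic glutamate receptor genes that passed, and the list's median was -0.76 (-0.38 with the length trend removed, where Grin3a was not called). Of the 20, 8 were called lower without HFD+Mino replicate 3. For 14 GABA-A receptor subunits the median was -0.88 (-0.50 with the length trend removed) and edgeR called 0, with 8 below HFD at an unadjusted p under 0.05, 4 called lower by DESeq2 and 3 called lower without HFD+Mino replicate 3. Among 38 voltage-gated sodium and calcium channel genes Cacna1a, the pore of P/Q-type calcium channels, rose (log2 fold change 1.86, SE 0.34, FDR 0.008) while the median was -0.53 (-0.21 with the length trend removed), and 1 was called higher and 2 lower without HFD+Mino replicate 3. Of 87 potassium channel genes Kcnmb4, a subunit of BK channels, rose by 2.16 on the log2 scale, whereas the family's median was -0.42 (-0.29 with the length trend removed). At an unadjusted p under 0.05, 25 potassium channel genes were below HFD and 8 above, DESeq2 called 12 lower and 2 higher, and without HFD+Mino replicate 3 edgeR called 14 lower and 2 higher. The 44 collagen genes had a median of -0.88 (-0.47 with the length trend removed) and edgeR called 0. Of them 10 were below HFD at an unadjusted p under 0.05, DESeq2 called 7 lower, and 5 were called lower without HFD+Mino replicate 3. Over all 17344 genes, 41.3% had such a p in either direction, and DESeq2 called 2182 higher and 1810 lower. Without HFD+Mino replicate 3, edgeR called 11.6% of all genes higher and 9.83% lower.

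Genes of insulin and nutrient signaling were called in both directions. Of 27 insulin signaling genes 3 fell and 1 rose (11.1% and 3.70%, against 2.16% and 1.98% of all genes). The lipid phosphatase gene Inppl1 was at 11.6, 8.53 and 12.4 CPM in HFD and 1.88, 3.01 and 4.15 CPM in HFD+Mino (log2 fold change -1.84, SE 0.37, FDR 0.00966), the regulatory subunit gene Pik3r3 at 44.8, 40.5 and 52.3 CPM in HFD and 13.8, 21 and 13.9 CPM in HFD+Mino (log2 fold change -1.50, SE 0.24, FDR 0.00454) and the kinase gene Pdpk1 at 103, 112 and 116 CPM in HFD and 48.3, 61.9 and 47.4 CPM in HFD+Mino (log2 fold change -1.07, SE 0.20, FDR 0.00797). Gsk3a, a kinase that insulin signaling inhibits, was at 4.47, 5.95 and 5.85 CPM in HFD and 28.7, 15.4 and 80.5 CPM in HFD+Mino (log2 fold change 2.93, SE 0.50, FDR 0.00604). Each group of 3 was separate from the other, and replicate 3 held the top value of Gsk3a. The insulin receptor Insr was at 39, 35.8 and 44.8 CPM in HFD and 26.9, 25.4 and 13.8 CPM in HFD+Mino, lower in all HFD+Mino libraries without passing (log2 fold change -0.86, SE 0.27, FDR 0.0397). In the RAS to ERK cascade Hras and Rras rose, the latter at 9.09, 11.3 and 9.36 CPM in HFD and 50.6, 38 and 22.9 CPM in HFD+Mino (log2 fold change 1.90, SE 0.33, FDR 0.00651), and 29 of 31 tested members did not pass. Of 34 genes of mTORC1 and AMPK, Eif4ebp1 and Nprl2 rose (5.88%) and Mtor, Prkaa1 and Rragd fell (8.82%). Mtor, the kinase itself, was at 92.9, 78.3 and 99.6 CPM in HFD and 39.2, 35.1 and 29 CPM in HFD+Mino (log2 fold change -1.39, SE 0.26, FDR 0.00856), Prkaa1, a catalytic subunit of AMPK, was at 65.8, 63 and 85.8 CPM in HFD and 15.4, 31.4 and 26 CPM in HFD+Mino (log2 fold change -1.56, SE 0.27, FDR 0.00645), and Eif4ebp1, a translation repressor that mTORC1 inactivates, was at 4.02, 2.78 and 4.08 CPM in HFD and 23.1, 15.2 and 7.62 CPM in HFD+Mino (log2 fold change 2.08, SE 0.40, FDR 0.00879). The medians were -0.79 for insulin signaling, -0.03 for the RAS to ERK cascade and 0.11 for mTORC1 and AMPK, and with the length trend removed they were -0.25, 0.08 and 0.03. In that fit Gsk3a and Hras were called, and Rras, the 3 insulin signaling falls and the 5 mTORC1 and AMPK genes were not. When HFD+Mino replicate 3 was left out the insulin list had 8 genes called lower and 1 higher, the RAS to ERK list 5 lower and 3 higher, and the mTORC1 and AMPK list 7 lower and 10 higher.

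Among 22 genes of PP2A and PP1 phosphatases, 4 rose and 1 fell (18.2% and 4.55%, against 1.98% and 2.16% of all genes). The list was chosen with earlier results of these data known, so its share of rises is not independent of Ppp2ca and Ppp2r2d. Beside Ppp2ca and Ppp2r2d, the beta catalytic subunit Ppp2cb was at 36, 47.7 and 40.1 CPM in HFD and 122, 117 and 205 CPM in HFD+Mino (log2 fold change 1.84, SE 0.26, FDR 0.00257) and the regulatory subunit Ppp2r5a at 2.76, 3.97 and 3.51 CPM in HFD and 10.2, 8.02 and 23.3 CPM in HFD+Mino (log2 fold change 2.01, SE 0.38, FDR 0.00848), while its relative Ppp2r5e was at 85.6, 96.9 and 88 CPM in HFD and 40.8, 37 and 32.5 CPM in HFD+Mino (log2 fold change -1.29, SE 0.19, FDR 0.00389). Ppp2r1a, the scaffold of the enzyme, had a log2 fold change of -0.15 and did not pass. Prkaca, the alpha catalytic subunit of protein kinase A, was at 8.38, 12.9 and 11.3 CPM in HFD and 51.5, 27.4 and 163 CPM in HFD+Mino (log2 fold change 2.89, SE 0.54, FDR 0.00826), with replicate 3 the highest. Gnas, which encodes the stimulatory G protein alpha subunit upstream of protein kinase A, was at 512, 645 and 619.6 CPM in HFD and 2634, 2095 and 2515 CPM in HFD+Mino (log2 fold change 2.03, SE 0.21, FDR 0.000633). Its groups were separate, and it was called in 5 of the 6 fits without a fat-diet library. In the list of 25 immediate early and C/EBP genes, Cebpb, Klf2 and Jund rose. Klf2, a Krüppel-like factor, was at 0.452, 1.16 and 0.772 CPM in HFD and 4.55, 4.38 and 9.89 CPM in HFD+Mino (log2 fold change 2.95, SE 0.46, FDR 0.00417), and Jund, an AP-1 subunit, was at 8.48, 30.4 and 18 CPM in HFD and 122, 59.1 and 169 CPM in HFD+Mino (log2 fold change 2.62, SE 0.47, FDR 0.00705). Fos was at 26.2, 42.7 and 55 CPM in HFD and 26.8, 12.5 and 43.5 CPM in HFD+Mino and did not pass, and Egr1 was at 54.6, 66.6 and 135 CPM in HFD and 9.65, 10.3 and 46.6 CPM in HFD+Mino, lower in HFD+Mino without passing (log2 fold change -1.94, SE 0.69, FDR 0.0558). Rac1 and Rac3, GTPases of the actin cytoskeleton, rose, Rac1 being at 58.2, 81.1 and 75 CPM in HFD and 299, 291 and 500.4 CPM in HFD+Mino (log2 fold change 2.35, SE 0.27, FDR 0.000994) and Rac3 higher by 1.53 on the log2 scale. Of 55 Rab GTPases, which direct vesicle traffic, Rab12, Rab21 and Rab24 rose (5.45%), with log2 fold changes of 2.42, 2.31 and 1.09. Of the genes in these groups, Ppp2cb, Ppp2r5e, Prkaca, Klf2, Jund, Rac3 and Rab24 were not called with the length trend removed. The fit without HFD+Mino replicate 3 called 4 phosphatase genes higher and 5 lower, 3 higher and 4 lower in the immediate early list, and 10 higher and 3 lower among the Rab genes.

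Of 43 core autophagy genes 2 fell (4.65%, against 2.16% of all genes). Rb1cc1, a scaffold of the kinase complex that starts autophagosomes, was at 92, 89.4 and 110.2 CPM in HFD and 22.9, 41.4 and 41.2 CPM in HFD+Mino (log2 fold change -1.47, SE 0.26, FDR 0.00684), and Atg2b, which moves lipids into the growing membrane, was at 75.3, 70.4 and 86.4 CPM in HFD and 22.5, 33.5 and 25.7 CPM in HFD+Mino (log2 fold change -1.51, SE 0.28, FDR 0.00785). Both were called with the length trend in the data and not after it was removed. Among members that did not pass, Sqstm1, the cargo receptor p62, was at 1166, 1198 and 1183 CPM in HFD and 1327, 1159 and 1273 CPM in HFD+Mino, and Map1lc3b, the ubiquitin-like protein on the membrane, was at 281, 355 and 381 CPM in HFD and 730.3, 589 and 467 CPM in HFD+Mino. The groups overlapped for Sqstm1 and not for Map1lc3b (log2 fold change 0.81, SE 0.28, FDR 0.0522). The median of the list was -0.06, and 6 were called higher and 9 lower without HFD+Mino replicate 3. Among 36 lysosomal genes Lamp1 rose, and the others did not pass, against 8 called higher and 2 lower without that library. Of 18 subunits of the V-ATPase, the pump that acidifies lysosomes, Atp6v0b and Atp6v0d1 rose (11.1%, against 1.98% of all genes). Atp6v0b was at 424, 446 and 440.3 CPM in HFD and 1672, 1117 and 730.0 CPM in HFD+Mino (log2 fold change 1.42, SE 0.28, FDR 0.0095) and Atp6v0d1 at 154, 169.7 and 165 CPM in HFD and 477, 308 and 345 CPM in HFD+Mino (log2 fold change 1.21, SE 0.22, FDR 0.00763). Neither was called with the length trend removed, and without HFD+Mino replicate 3 the V-ATPase list had 7 genes called higher and 2 lower.

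Calls among ubiquitin genes lay in both directions. Of 35 ubiquitin-conjugating enzymes 4 rose (11.4%, against 1.98% of all genes), Ube2m and 3 others. Ube2q1 was at 11.5, 17.3 and 19 CPM in HFD and 50.5, 58.9 and 50.9 CPM in HFD+Mino (log2 fold change 1.74, SE 0.23, FDR 0.00233), Ube2e2 at 42.6, 44 and 45.1 CPM in HFD and 164, 124 and 140.5 CPM in HFD+Mino (log2 fold change 1.70, SE 0.20, FDR 0.00117), and Ube2r2 was higher by 1.46 on the log2 scale. Of 48 ubiquitin-specific proteases and like-named genes 3 fell (6.25%, against 2.16% of all genes). Usp9x, a large deubiquitinase on the X chromosome, was at 133, 80.4 and 98 CPM in HFD and 13.1, 26.3 and 21.6 CPM in HFD+Mino (log2 fold change -2.35, SE 0.33, FDR 0.0027), and Usp6nl and Usp46 fell, with log2 fold changes of -1.48 and -1.38. The cullin genes Cul5, Cul7 and Cul9 fell, with log2 fold changes of -1.20, -2.01 and -1.99. Median exon length was 4400 nt for the conjugating enzymes and 7640 nt for the proteases. With the length trend removed all 4 conjugating enzymes and Usp9x were called, and Usp6nl, Usp46 and the 3 cullins were not. In the fit without HFD+Mino replicate 3, 7 conjugating enzymes were called higher and 1 lower, and 16 proteases lower and 1 higher.

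The comparison was made in a study of microglia, and microglial markers passed about as often as genes at large. Of 20 tested microglial markers edgeR called 0, with 5 above and 4 below HFD at an unadjusted p under 0.05 and 2 higher and 1 lower by DESeq2. Over all 17344 genes, 41.3% reached such a p, and DESeq2 called 2182 higher and 1810 lower. Without HFD+Mino replicate 3, 3 markers were called higher and 2 lower, against 11.6% and 9.83% of all genes. Single markers went in both directions. The summed level of the list was 609 to 664 CPM in HFD and 706 to 846 CPM in HFD+Mino, and the median log2 fold change was 0.27 (-0.24 with the length trend removed). Aif1, which encodes the microglial antigen Iba-1, was at 7.08, 7.19 and 5.97 CPM in HFD and 23.7, 19.7 and 8.77 CPM in HFD+Mino, higher in all HFD+Mino libraries without passing (log2 fold change 1.36, SE 0.45, FDR 0.0438). Its log2 fold change was 1.68 without HFD+Mino replicate 3, which passed (FDR 0.00888), and 0.38 with the length trend removed (FDR 0.443). Cx3cr1, the fractalkine receptor, was at 31.4, 35.3 and 39.4 CPM in HFD and 23.2, 22.8 and 26 CPM in HFD+Mino, lower in all of them without passing (log2 fold change -0.56, SE 0.22, FDR 0.0791). Csf1r, the receptor that keeps microglia alive, was at 106, 89.4 and 106 CPM in HFD and 36.8, 30.3 and 86.7 CPM in HFD+Mino and did not pass (log2 fold change -0.97, SE 0.34, FDR 0.0564). Its log2 fold change without HFD+Mino replicate 3 was -1.58 and it was called lower (FDR 0.000818), and it was also called there with the length trend removed (FDR 0.00268). Of 19 genes of microglial activation Fcgr3, an Fc receptor, rose, at 14.2, 17.2 and 12.3 CPM in HFD and 45.1, 54 and 30.6 CPM in HFD+Mino (log2 fold change 1.57, SE 0.32, FDR 0.00985), a call lost with the length trend removed, and the list's sum was 249 to 275 CPM in HFD and 325 to 491 CPM in HFD+Mino. Of these genes 3 were called higher and 1 lower without HFD+Mino replicate 3. In bulk tissue, more cells of a type and more RNA per cell cannot be told apart.

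Cytokine transcripts were scarce. Il1b had 1 to 5 reads in the HFD libraries and 0 to 4 in HFD+Mino, Tnf had 0 to 3 and 0 to 2, and Il10 had 0 to 1 in both, so these 3 genes were under the filter on low counts and no difference was detectable at this depth. Il6 was at 0.402, 0.029 and 0 CPM in HFD and 0, 1.04 and 0 CPM in HFD+Mino, with 28 reads in HFD+Mino replicate 2 and none in the other HFD+Mino libraries. Il6st, the gp130 chain of its receptor, was at 98.5, 97.2 and 105 CPM in HFD and 16.3, 30.02 and 38.2 CPM in HFD+Mino (log2 fold change -1.83, SE 0.35, FDR 0.00859) and was the member of 26 cytokine and inflammation genes that passed. In the NF-kB list of 32 genes Otulin rose and Cyld fell (3.1% in each direction, against 1.98% and 2.16% of all genes). Cyld, also a deubiquitinase of linear chains, was at 158, 142 and 133 CPM in HFD and 62.9, 59.7 and 66.5 CPM in HFD+Mino (log2 fold change -1.19, SE 0.22, FDR 0.008), the opposite direction to Otulin. Nfkbia, which encodes the inhibitor that holds NF-kB in the cytoplasm, was at 31.4, 45.9 and 45.7 CPM in HFD and 123, 68.1 and 85 CPM in HFD+Mino and did not pass (log2 fold change 1.17, SE 0.26, FDR 0.0126). Of 24 interferon-response genes Isg15 and Ifi35 rose, Isg15, a ubiquitin-like antiviral protein, being at 0.552, 0.783 and 0.921 CPM in HFD and 7.36, 8.14 and 3.39 CPM in HFD+Mino (log2 fold change 3.04, SE 0.58, FDR 0.00846) and Ifi35 at 3.71, 4.61 and 4.73 CPM in HFD and 21.4, 23 and 10.1 CPM in HFD+Mino (log2 fold change 2.06, SE 0.36, FDR 0.00636). Of 23 complement and MHC genes Cd59a, an inhibitor of the membrane attack complex, rose, at 16.3, 14.5 and 19.3 CPM in HFD and 54.2, 93.5 and 33.9 CPM in HFD+Mino (log2 fold change 1.86, SE 0.37, FDR 0.00954), and C4b, complement component 4, fell, at 63.9, 38.3 and 43.1 CPM in HFD and 14.4, 11.8 and 18.2 CPM in HFD+Mino (log2 fold change -1.71, SE 0.32, FDR 0.00802). The 8 genes of enzymes that minocycline is known to inhibit (among them Parp1, Casp1, Nos2 and Mmp9) gave 0 calls by edgeR, with 1 above and 2 below HFD at an unadjusted p under 0.05 and 1 called higher by DESeq2. Parp1 was at 32.6, 47 and 45.6 CPM in HFD and 15.3, 12 and 32.6 CPM in HFD+Mino and Mapk14, the p38 alpha kinase, was at 39.7, 52.4 and 50.4 CPM in HFD and 43.3, 32.2 and 61.8 CPM in HFD+Mino. With the length trend removed Otulin was called, and Il6st, Cyld, Isg15, Ifi35, Cd59a and C4b were not. Leaving out HFD+Mino replicate 3 gave 2 genes called higher and 3 lower in the cytokine list, 2 and 5 for NF-kB, 7 and 1 for the interferon response, 4 and 1 for complement and MHC, and 1 and 1 for the enzymes that minocycline inhibits.

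Markers of other cell types changed in a few members each. Sox9, a transcription factor of astrocytes, was at 100.4, 107 and 105 CPM in HFD and 22.2, 32.8 and 34.4 CPM in HFD+Mino (log2 fold change -1.81, SE 0.23, FDR 0.00184), the member of 18 astrocyte markers that passed. The list's summed level overlapped between the groups, at 9399 to 10879 CPM in HFD and 8933 to 11241 CPM in HFD+Mino. Of 13 markers of oligodendrocyte precursors 3 fell and C1ql1 rose (23.1% and 7.69%, against 2.16% and 1.98% of all genes). Gpr17, a receptor of precursors that are about to differentiate, was at 52.1, 57 and 48.5 CPM in HFD and 9.55, 9.51 and 14.1 CPM in HFD+Mino (log2 fold change -2.25, SE 0.32, FDR 0.00264), Cspg4, the NG2 proteoglycan, was at 19.5, 21.5 and 22.4 CPM in HFD and 6.68, 7.24 and 5.41 CPM in HFD+Mino (log2 fold change -1.71, SE 0.25, FDR 0.00354), and Ptprz1 was at 236, 186 and 206 CPM in HFD and 81.7, 80.5 and 93.7 CPM in HFD+Mino (log2 fold change -1.30, SE 0.20, FDR 0.0042). All 3 HFD+Mino libraries were below HFD for each, with replicate 3 the nearest for Gpr17 and Ptprz1. Of 17 genes of mature oligodendrocytes edgeR and DESeq2 called 0, with 0 at an unadjusted p under 0.05. Mbp was at 1538, 4361 and 2808 CPM in HFD and 1478, 1183 and 3618 CPM in HFD+Mino, with HFD+Mino replicate 3 within the HFD range. Of 20 endothelial and mural markers 3 fell (15%), Kdr, Pdgfrb and Cspg4. Kdr, a VEGF receptor, was at 13.1, 10.2 and 16.1 CPM in HFD and 2.36, 2.19 and 4.21 CPM in HFD+Mino (log2 fold change -2.16, SE 0.37, FDR 0.00609) and Pdgfrb at 19.7, 17.5 and 19.5 CPM in HFD and 7.02, 4.75 and 7.24 CPM in HFD+Mino (log2 fold change -1.57, SE 0.31, FDR 0.00949). The list's summed level was 513 to 599 CPM in HFD and 654 to 1259 CPM in HFD+Mino, higher in every HFD+Mino library. Nes, a filament gene of tanycytes and of growing vessels, was at 8.73, 10.3 and 8.04 CPM in HFD and 3.15, 2.34 and 1.48 CPM in HFD+Mino (log2 fold change -1.96, SE 0.37, FDR 0.00846). With the length trend removed Sox9, Gpr17 and C1ql1 were called, and Cspg4, Ptprz1, Kdr, Pdgfrb and Nes were not. Leaving out HFD+Mino replicate 3 gave 4 astrocyte markers called lower, 4 precursor markers called lower and 1 higher, and 3 endothelial and mural markers in each direction.

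Among 12 ependymal genes edgeR called 0 and DESeq2 called 3 higher, with 5 above HFD at an unadjusted p under 0.05. Their sum was 651 to 997 CPM in HFD and 1121 to 1850 CPM in HFD+Mino, and their median of 1.03 became -0.15 with the length trend removed. The hemoglobin and red cell list was at 19 to 44 CPM in HFD and at 131, 95 and 19 CPM in HFD+Mino replicates 1 to 3, with 0 of 5 genes called by edgeR or DESeq2 and 1 gene in each direction at an unadjusted p under 0.05. For 18 neuronal markers edgeR called 0 and DESeq2 4 higher and 3 lower, with 6 above and 5 below HFD at an unadjusted p under 0.05. Their sum was 9187 to 12803 CPM in HFD and 9376 to 12625 CPM in HFD+Mino. In the fit without HFD+Mino replicate 3, 2 ependymal genes and 1 of the red cell list were called higher. In that fit 4 neuronal markers were called higher and 3 lower, against 11.6% and 9.83% of all genes. The part of tissue makeup in the gene results was not tested.

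The peptide genes Avp, Oxt and Crh set HFD+Mino replicate 3 apart from replicates 1 and 2. Of the 20 peptide and identity genes edgeR and DESeq2 called 0, with 2 above and 2 below HFD at an unadjusted p under 0.05. Their summed level was 5352 to 6115 CPM in HFD, and 40744, 36168 and 6288 CPM in HFD+Mino replicates 1 to 3. Avp had log2 fold change 3.66, SE 1.71, FDR 0.128 and Oxt had log2 fold change 2.18, SE 1.36, FDR 0.247, so the 2 high libraries did not give a call. Crh, the corticotropin-releasing hormone gene, was at 14.4, 49.8 and 49.8 CPM in HFD and 126, 153 and 25.6 CPM in HFD+Mino, again with replicate 3 among the HFD values (log2 fold change 1.42, SE 0.65, FDR 0.124). Trh was at 455, 293 and 259.9 CPM in HFD and 632, 852 and 499 CPM in HFD+Mino and Sst at 452, 225 and 137 CPM in HFD and 331, 599.9 and 703 CPM in HFD+Mino, and Sim1, which PVN neurons need to form, was at 16.6, 10.8 and 21.6 CPM in HFD and 10.1, 35.7 and 2.51 CPM in HFD+Mino. The Trh groups did not overlap and those of the others did. Genes of neighbouring nuclei gave 0 calls of 20 by edgeR, with 6 above and 2 below HFD at an unadjusted p under 0.05, and 4 higher and 2 lower by DESeq2. Of 22 feeding and stress receptors edgeR called 0, with 2 above and 5 below HFD at an unadjusted p under 0.05 and 1 higher and 2 lower by DESeq2. Mc4r, the melanocortin receptor of satiety, was at 6.37, 7.02 and 9.11 CPM in HFD and 19.3, 29.6 and 7.38 CPM in HFD+Mino (log2 fold change 1.32, SE 0.60, FDR 0.118), and Lepr, the leptin receptor, was at 1.76, 1.62 and 2.34 CPM in HFD and 0.342, 1.08 and 0.601 CPM in HFD+Mino (log2 fold change -1.50, SE 0.54, FDR 0.06). Lepr was lower in all HFD+Mino libraries at a level near 1 CPM. Leaving out HFD+Mino replicate 3 gave 1 peptide and identity gene and 4 genes of neighbouring nuclei called higher, and 2 of the receptors called lower.

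**Figure D5:**
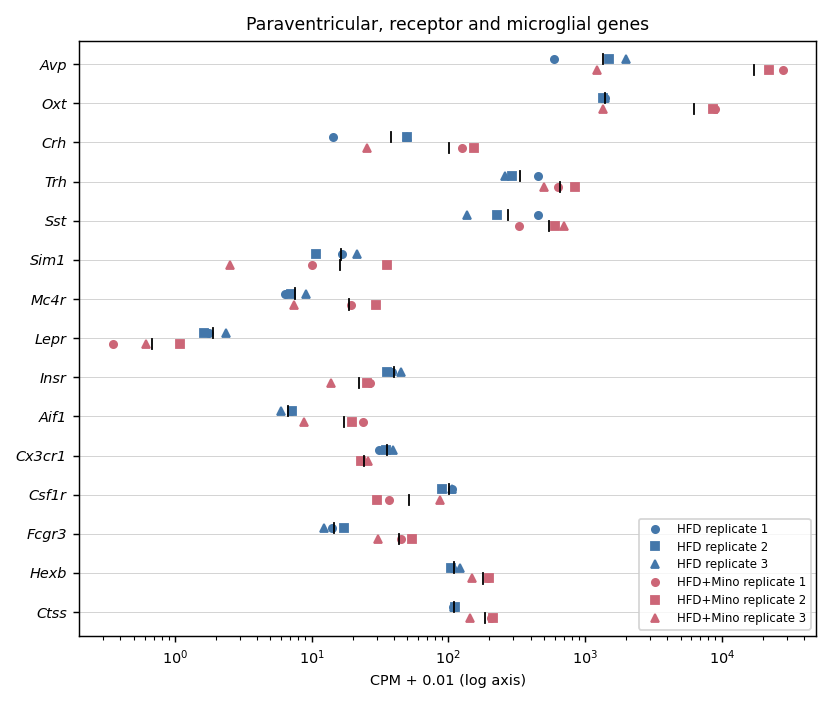
CPM (horizontal log axis, 0.01 added) of 15 PVN, receptor and microglial genes in 3 HFD (blue) and 3 HFD+Mino (pink) libraries, with a black tick at the group mean. HFD+Mino replicate 3 (triangle) lies at 1218 CPM for Avp and 1358 CPM for Oxt, apart from replicates 1 and 2.

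Of 36 genes of cholesterol and fatty acid synthesis 2 rose and 2 fell (5.56% in each direction, against 1.98% and 2.16% of all genes). Their median was -0.22 (-0.09 with the length trend removed). Fasn, the fatty acid synthase, was at 203, 186 and 228 CPM in HFD and 31.3, 22.6 and 64.5 CPM in HFD+Mino (log2 fold change -2.38, SE 0.43, FDR 0.0072), and Scd2, the main brain stearoyl-CoA desaturase, was at 1444, 1529 and 1534 CPM in HFD and 222, 251 and 483 CPM in HFD+Mino (log2 fold change -2.24, SE 0.31, FDR 0.00257). Both were lower in every HFD+Mino library, with replicate 3 nearest to HFD. Fdps, an enzyme of the cholesterol pathway, rose by 1.26 on the log2 scale. Of these 3 genes Fasn was not called with the length trend removed. Of 31 genes of fatty acid oxidation and ketone use edgeR called 0, with 7 in each direction at an unadjusted p under 0.05, and DESeq2 called 1 higher and 4 lower. Of 40 genes of glycolysis and the citric acid cycle Idh3g rose by 1.40 on the log2 scale, a call lost with the length trend removed, and the list's median was 0.11. Leaving out HFD+Mino replicate 3 gave 1 gene of fatty acid oxidation called higher and 5 lower, and 6 genes of glycolysis and the citric acid cycle called higher and 4 lower. Of the synthesis genes, 6 were called higher and 9 lower in that fit.

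Exons of some of the genes named above also overlap another gene, among them Rac1 (2309 nt, with Daglb), Pik3r3 (1289 nt, with Gm49337), Rab24 (1258 nt, with Prelid1), Inppl1 (1204 nt, with Gm10602), Fdps (1124 nt, with Gm43738), Jund (877 nt, with Gm11175), Csf1r (873 nt, with Hmgxb3) and Gsk3a (820 nt, with 9130221H12Rik), and their values are uncertain to that extent.

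Noncoding and imprinted transcripts were called in both directions. Malat1, a nuclear RNA of speckles, was at 789, 1099 and 1144 CPM in HFD and 3955, 6200 and 2778 CPM in HFD+Mino (log2 fold change 2.09, SE 0.40, FDR 0.0088), and Miat was at 17, 17.9 and 13.8 CPM in HFD and 48.9, 34 and 48.8 CPM in HFD+Mino (log2 fold change 1.44, SE 0.25, FDR 0.00636). Tug1 was at 241, 235 and 249.9 CPM in HFD and 34.5, 49.6 and 58.4 CPM in HFD+Mino (log2 fold change -2.35, SE 0.28, FDR 0.00121), and was called in 5 of the 6 fits without a fat-diet library. The ribosomal precursor Rn45s was at 3829, 3567 and 3477 CPM in HFD and 1346, 755 and 426 CPM in HFD+Mino (log2 fold change -2.10, SE 0.39, FDR 0.008). Of 33 tested imprinted genes Peg3 fell and Gnas, Meg3 and Mirg rose. Meg3 and Mirg, noncoding RNAs of 1 maternally expressed cluster, were at 323, 432 and 481 CPM in HFD and 1336, 905 and 897 CPM in HFD+Mino (log2 fold change 1.34, SE 0.24, FDR 0.00763) and at 1.91, 1.91 and 1.87 CPM in HFD and 14, 8.36 and 4.67 CPM in HFD+Mino (log2 fold change 2.25, SE 0.41, FDR 0.00791).

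The splicing factors Srsf2 and Srsf9 rose and Hnrnpu fell among 31 members of these families. Srsf2 was at 25.9, 34.7 and 25.9 CPM in HFD and 122, 121 and 179 CPM in HFD+Mino (log2 fold change 2.28, SE 0.24, FDR 0.000745), called in 5 of the 6 fits without a fat-diet library, and Srsf9 was at 12.9, 14.7 and 12.6 CPM in HFD and 47.3, 39.3 and 58.8 CPM in HFD+Mino (log2 fold change 1.85, SE 0.22, FDR 0.00122). Kdm1a, a histone demethylase, was at 9.84, 11.4 and 15.5 CPM in HFD and 40.7, 39.9 and 62.3 CPM in HFD+Mino (log2 fold change 1.96, SE 0.27, FDR 0.00257), and Kdm5a fell by 1.13 on the log2 scale. In translation, Eef2, the elongation factor that moves the ribosome, was at 506, 582 and 619.9 CPM in HFD and 267, 197 and 229.6 CPM in HFD+Mino (log2 fold change -1.30, SE 0.20, FDR 0.00426), and Eif4g1 fell by 1.39 on the log2 scale, while Eif4a1 rose by 1.00 on the log2 scale and most of the 65 listed factors did not pass. Of 373 zinc finger (Zfp) genes 8 fell and 2 rose, Zfp407 having a log2 fold change of -2.02, against 2.16% and 1.98% over all genes. Of 310 solute carriers 9 fell and 3 rose, with Slc5a3, which carries myo-inositol, at 59.8, 53.7 and 74.4 CPM in HFD and 9.89, 25 and 12.3 CPM in HFD+Mino (log2 fold change -1.99, SE 0.34, FDR 0.00597) and Slc25a28, a mitochondrial iron carrier, at 5.27, 6.84 and 6.7 CPM in HFD and 23.1, 18.6 and 30.02 CPM in HFD+Mino (log2 fold change 1.93, SE 0.25, FDR 0.00199). Of 21 clock genes 1 rose and 1 fell (4.76% in each direction), and of 17 glucocorticoid signaling genes 1 rose (5.88%), against 1.98% and 2.16% of all genes. The medians were -0.76 and 1.08 (-0.36 and 0.46 with the length trend removed). Ciart, a repressor of the clock, was at 14.7, 17.8 and 15.7 CPM in HFD and 82.3, 35.4 and 54.6 CPM in HFD+Mino (log2 fold change 1.84, SE 0.29, FDR 0.00465), Rorb, a nuclear receptor, was at 62.9, 61.8 and 68.8 CPM in HFD and 25.2, 20.7 and 27.2 CPM in HFD+Mino (log2 fold change -1.41, SE 0.22, FDR 0.00409), and Tsc22d3, a glucocorticoid target, was at 160.4, 196 and 222 CPM in HFD and 528, 333 and 609.5 CPM in HFD+Mino (log2 fold change 1.35, SE 0.27, FDR 0.00951). In cell death and stress lists, Bax and Dapk3 rose among 27 apoptosis genes, Bax at 34.4, 34.7 and 29.7 CPM in HFD and 145, 97.6 and 65.7 CPM in HFD+Mino (log2 fold change 1.64, SE 0.30, FDR 0.008), and Ppp1r15b and Atf6 fell among 31 genes of endoplasmic reticulum stress, by 1.58 and 1.26 on the log2 scale. Bag1 rose and Hspa12a fell among 32 heat shock chaperones, at log2 fold changes of 1.74 and -1.34. With the length trend removed Srsf9, Hnrnpu, Kdm5a, Eif4g1, Zfp407, Slc5a3, Ciart, Rorb, Bax, Atf6, Bag1 and Hspa12a were not called. The fit without HFD+Mino replicate 3 called 11.6% of all genes higher and 9.83% lower. In it, 7 of 373 zinc finger genes were called higher and 43 lower. Of 310 solute carriers, 13 were called higher and 37 lower. The falls in these 2 families were near the share of all genes, and the rises were below it. The same fit called 3 splicing factors higher and 5 lower, and 14 translation factors higher and 6 lower. It called 5 apoptosis genes higher, 4 genes of endoplasmic reticulum stress higher and 5 lower, and 3 chaperones higher and 6 lower. Of the clock genes it called 1 higher and 8 lower, and of the glucocorticoid signaling genes 3 higher and 1 lower.

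The direction of list medians was compared between settings. Other size factors move nearly all genes alike, by at most 0.0214 for a list median with RLE and 0.0335 with DESeq2. Only small medians could change sign there. Over the 78 lists and families, the median kept its sign in all with RLE or DESeq2 size factors, and in all but 2 (the RAS to ERK cascade and fatty acid oxidation) with libraries thinned to the smallest total. With the exon length trend removed, 20 medians changed sign.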

How the data were processed

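Bulk RNA-seq was made from PVN tissue of 9 mice (3 Control, 3 HFD and 3 HFD+Mino), with paired reads of 50 nt from amplified cDNA whose kit does not mark strand. The authors aligned the reads to mm10 (GRCm38) with HISAT2 and deposited raw read counts per gene from featureCounts, with no normalization; the versions of these tools are not given in the sources used here. Groups follow the sample labels, and the mice of a group are separate animals.

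The counts were tested with edgeR 4.0.16 (R 4.3.3), using TMM scaling, its expression filter and the quasi-likelihood F test, in 1 model of all 9 samples, with Benjamini-Hochberg adjustment over 17344 genes. A gene was called at FDR under 0.01 and at least 1.5-fold, the thresholds the study used. The SE of a log2 fold change is its size divided by the square root of F, and CPM use TMM-scaled library sizes. Differences of single libraries from the HFD mean use log2(CPM + 0.5). The fit was tested on simulated counts with known changes. That simulation gave all groups the same spread for a gene, so it does not bear on the wider spread of the HFD+Mino libraries. The 6 pairs of replicates within HFD and within HFD+Mino all differed by more than sampling noise, with a chi-square per degree of freedom of 21 or more over genes with at least 10 counts.

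Exon length, GC content and exon overlap came from GENCODE M21 (15625 tested genes matched), and positions and promoters from RefSeq on GRCm38.p6 (16788 matched). The genes named are the 10 largest rises and 10 largest falls among called genes without overlap, up to 15 genes in each direction that were called without each fat-diet library in turn, up to 5 called and 3 abundant uncalled members of each of 78 gene lists and families, and 17 marker, cytokine and receptor genes. Members and lists were chosen with earlier results of these data known. Alternatives were DESeq2 1.42.0, the likelihood ratio test, other scalings, filters, thresholds and sample sets, a replicate block, trends on exon length and GC removed through offsets, and each sample left out. The trend on the GC-richest 100 nt, and the fits that join a trend with a left-out library, were added after the data were seen. Tables and plots used Python 3.11.15, pandas 2.3.3, numpy 2.4.6 and matplotlib 3.10.9. A few genes and 1 gene family that the rule named are not reported here.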

Additional observations from a re-analysis of the deposited data

How the results depend on the processing

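With all 9 samples 344 genes were called higher and 375 lower in HFD+Mino. DESeq2 called 2182 and 1810, the likelihood ratio test 1788 and 1526, an FDR under 0.05 gave 2524 and 2233, no filter on low counts 1113 and 792, and removal of a GC content trend 811 and 747. Removal of the exon length trend lowered the count of falls to 149 (rises 309). The 6 fat-diet samples alone gave 149 higher and 257 lower. With the replicate number as a block the counts were 568 and 801 in 9 samples and 126 and 254 in the 6 fat-diet samples. Same-numbered HFD and HFD+Mino samples deviated from their group means with correlations of -0.184, -0.203 and -0.0188. Those of differently numbered samples lay between -0.059 and 0.189. Deviations from a mean of 3 libraries are bound to cancel, so these correlations cannot settle whether the numbers pair the mice. Replicate numbers follow the sample titles. The numbers in the names of the count columns match them in HFD+Mino and not in HFD, and the study describes the mice as independent. Leaving out each sample in turn gave 26 to 2061 higher and 3 to 1754 lower. HFD+Mino replicate 3 left out together with the length trend removed gave 1503 and 1056, and with the trend on the GC-richest 100 nt removed 2179 and 1661. Size factors by RLE, thinned libraries, a mean count of at least 50, no fold threshold, the ribosomal and mitochondrial transcripts left out and the trend on the GC-richest 100 nt removed in all 9 samples each kept both counts within 1.5-fold. The causes of these shifts were not tested. For 151 named genes with 1 sample left out, 807 of 1359 log2 fold changes kept direction and side of the threshold. Another 545 kept direction and lost the call. The other settings include thresholds applied to the main fit, where no direction can change, and uncalled genes that stayed uncalled count as kept. Over all settings together, 3108 of 3924 log2 fold changes kept direction and side of the threshold, 777 lost the call, 36 gained one and 3 reversed. All 3 were of Ppp2r1a, which was not called, which lay between -0.31 and 0.03 with each sample left out (0.03 without HFD+Mino replicate 2), and was at 0.12 with the trend on the GC-richest 100 nt removed and at 0.14 with that trend removed and HFD+Mino replicate 3 left out. With 3 mice a group and wide spread in HFD+Mino, small changes and scarce transcripts such as cytokines were beyond what these depths resolve.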
